A study of Mus musculus with 6 samples.

Results

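Vnn1, Pdk4, Angptl4, Cpt1a, Ppara, Plin2, Acadm and Ehhadh, genes tied to PPAR-alpha and to the burning of fatty acids, were followed in mouse colon that lacks epithelial Indian hedgehog. They were found by gene symbol on the array, 8 of 8 with a row of their own, among 19938 genes measured in that way, and they had been selected on their mutant against control values in these same samples. Whole colon of 3 mutant mice (VilCre;Ihhflox/flox) was set against whole colon of 3 control littermates, so that each of 3 litters gave a mutant and a control. The Cre recombinase is driven by villin, a promoter of gut epithelium, which leaves the Ihh gene of other cells of the colon intact. The control mice are described as wild type in some labels, and their own Ihh and Cre alleles are not stated. Mice were taken at postnatal day 12 by the design text and at day 9 to day 12 by the growth protocol, and no treatment or feeding state is given.

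PPAR-alpha, the product of Ppara, is a nuclear receptor that binds fatty acids and their derivatives. With its partner RXR it sits on DNA as a pair and switches on genes for the uptake, activation and oxidation of fatty acids. It is known to be active in the intestinal epithelium, among other tissues with a high turnover of fat. The other genes of the set are known targets of the receptor in mouse tissues. They encode a pantetheinase (Vnn1), a brake on glucose oxidation (Pdk4), an inhibitor of lipoprotein lipase (Angptl4), the gate of fatty acid entry into mitochondria (Cpt1a), an enzyme of mitochondrial oxidation (Acadm), an enzyme of peroxisomal oxidation (Ehhadh) and a coat protein of lipid droplets (Plin2).

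Values are log2 expression made by the authors with RMA, in which a step of 1 is a doubling of signal. Changes are mutant minus control, with the standard error of a limma fit over all 19938 genes that takes each litter as a block. A gene is said to have passed, or to have risen or fallen, when its adjusted p in that fit was below 0.05. The 6 arrays had medians between 7.10 and 7.14. Ptch1, a hedgehog target, was at 9.06, 8.94 and 9.01 in mutants 1 to 3 and at 10.32, 10.46 and 10.54 in controls 1 to 3. Ihh itself stood at -0.30 ± 0.09 and did not pass (adjusted p = 0.139). The deleted stretch of Ihh is not stated, so that value checks the labels only in part. Xist, the RNA that coats the silent X chromosome of females, was at 6.41, 12.03 and 11.92 in mutants 1 to 3 and at 11.96, 5.96 and 5.83 in controls 1 to 3. Each litter thus holds a mouse with high and a mouse with low Xist, with the mutant on the low side in litter 1 and on the high side in litters 2 and 3.

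Of the 8 genes, 4 rose (Vnn1, Pdk4, Angptl4 and Ehhadh), 0 fell and 4 did not pass, while 1.66% of all genes rose and 2.11% fell. In 5 of the 8 genes all mutants lay above all controls, an arrangement seen in 10.0% of all genes, and in 0 of the 8 all mutants lay below all controls (9.78% of all genes). The genes were chosen by values of this comparison, so the counts only describe them. Their changes ran from -0.18 for Ppara to 1.76 for Vnn1.

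**Figure D1:**
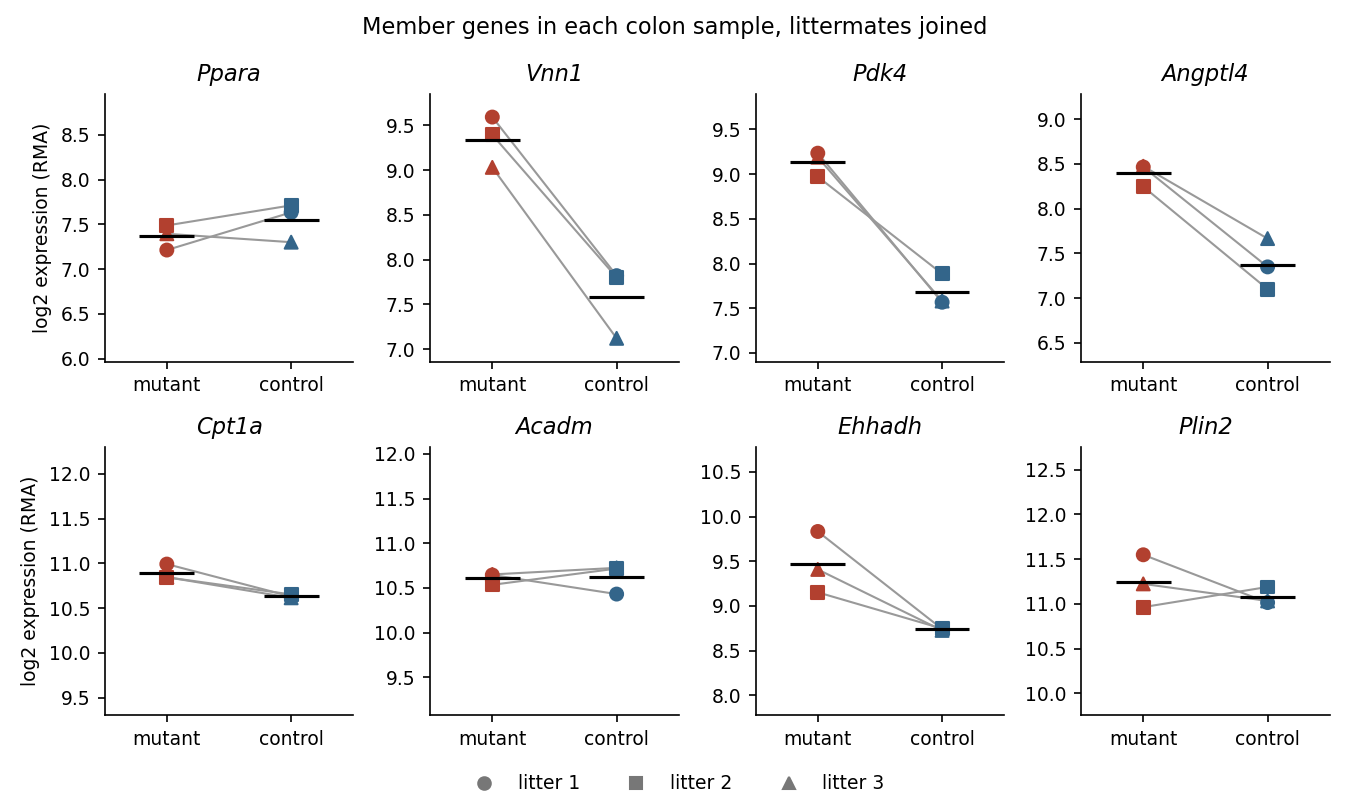
Log2 expression (RMA) of the 8 genes in each colon sample, with 1 panel a gene, mutants on the left and controls on the right, littermates joined by a line and black bars for the group means; every panel spans the same number of log2 units. The mutants lie above the controls in Vnn1, Pdk4, Angptl4, Ehhadh and Cpt1a, and the groups overlap in Ppara, Acadm and Plin2.

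Ppara, the receptor gene, was at 7.21, 7.49 and 7.40 in mutants 1 to 3, against 7.63, 7.71 and 7.30 in controls 1 to 3. The groups overlapped, with the mutant lower in litters 1 and 2 and higher in litter 3, and the change of -0.18 ± 0.11 did not pass. The genes of its relatives did not pass either. Ppard, which encodes PPAR-delta, a broadly expressed receptor for fatty acids, stood at 0.15 ± 0.08. Pparg, whose receptor is known from adipocytes and from surface cells of the colon, stood at -0.16 ± 0.08. Rxra, the gene of the partner receptor, stood at -0.11 ± 0.10, and Ppargc1a, a coactivator of oxidative metabolism, at 0.18 ± 0.13. Of the 15 measured receptors, partners and coregulators beside Ppara, 0 rose and 0 fell in the limma fit, and their median change was -0.04. With 1.66% of all genes rising and 2.11% falling, a list this short will often hold 0 of either, here and below.

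Vnn1 encodes vanin 1, an enzyme anchored at the cell surface that splits pantetheine into cysteamine and pantothenate, the vitamin from which coenzyme A is built. Its signal was 9.59, 9.40 and 9.03 in mutants 1 to 3, against 7.82, 7.80 and 7.12 in controls 1 to 3. The lowest mutant was 1.21 above the highest control on the log2 scale, and litter 3 was the low one in both groups. The change was 1.76 ± 0.09, a 3.38-fold higher signal in mutants, and it took rank 10 of 19938 among rises. The differences of litters 1, 2 and 3 were 1.77, 1.59 and 1.91.

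Vnn3, a related vanin gene next to Vnn1 in the gene order of the RefSeq table, was at 5.53, 5.68 and 5.78 in mutants, against 5.49, 5.81 and 5.65 in controls. Its groups overlapped and its change was 0.01 ± 0.09. The Vnn3 signal was dim, with a mean of 5.65 at percentile 18.7 of all genes, so a change of that gene could be missed. Genes that turn pantothenate into coenzyme A gave small differences that did not pass, among them Pank1 (0.00 ± 0.09), a pantothenate kinase, and Coasy (0.14 ± 0.09), the enzyme of the last steps. In the list of vanins and coenzyme A genes without Vnn1, 1 of 11 rose and 0 fell. The gene that rose was Slc5a6, a transporter that carries pantothenate and biotin into cells. It was at 9.55, 9.40 and 9.15 in mutants, against 8.92, 8.74 and 8.58 in controls, with a change of 0.62 ± 0.08 (adjusted p = 0.00695).

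Pdk4 encodes a pyruvate dehydrogenase kinase, which switches off the entry of pyruvate into the citric acid cycle and so spares glucose when fat is burnt. It was at 9.23, 8.97 and 9.19 in mutants 1 to 3, against 7.57, 7.89 and 7.58 in controls 1 to 3. The lowest mutant was 1.09 above the highest control on the log2 scale. The change was 1.45 ± 0.12 (2.74-fold), and litter 2 had the smallest difference, 1.09, beside 1.67 in litter 1 and 1.61 in litter 3. The other kinase genes did not pass, with Pdk1 at 0.22 ± 0.11, Pdk2 at -0.08 ± 0.08 and Pdk3 at 0.07 ± 0.08. Of the 10 measured kinases, phosphatases and subunits of the dehydrogenase beside Pdk4, 0 rose and 0 fell in the limma fit (1.66% and 2.11% of all genes). Their median change was 0.09.

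Angptl4 encodes a secreted protein that disables lipoprotein lipase and thereby limits the release of fatty acids from circulating fat. It was at 8.47, 8.25 and 8.47 in mutants 1 to 3, against 7.35, 7.10 and 7.67 in controls 1 to 3. The groups did not overlap, the change was 1.02 ± 0.10 (2.03-fold), and the litter differences were 1.12, 1.15 and 0.81. Lpl, the gene of the lipase, was at 7.70, 7.90 and 7.73 in mutants, against 8.13, 8.04 and 8.08 in controls. Its change of -0.30 ± 0.09 did not pass (adjusted p = 0.135), although all mutants were below all controls. Angptl8, whose product works on the same lipase together with a further family member, stood at 0.15 ± 0.09.

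**Figure D2:**
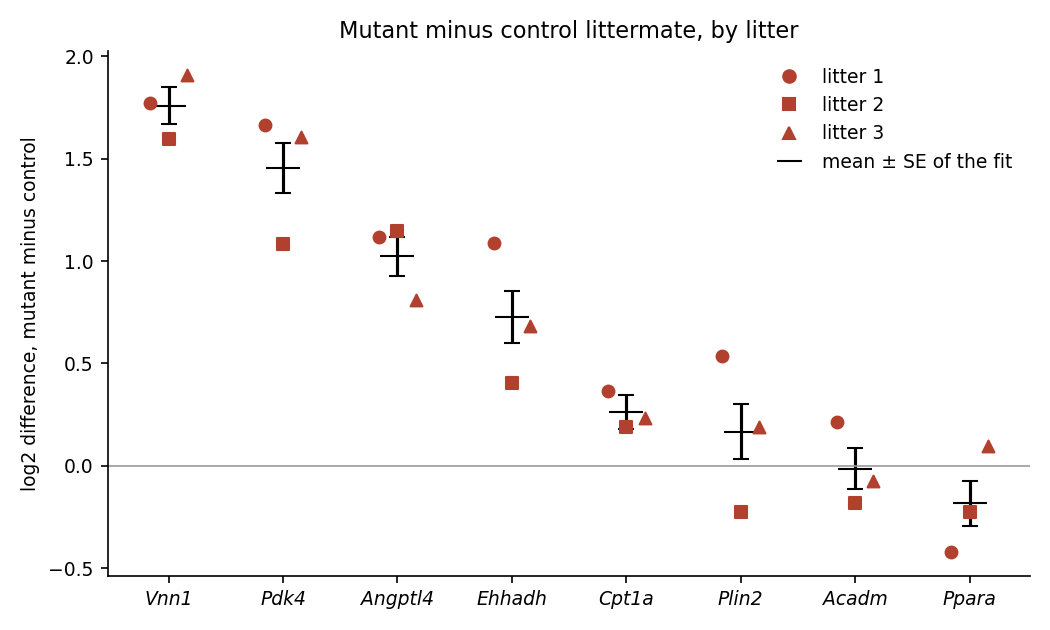
Log2 difference between the mutant and its control littermate for the 8 genes, with 1 symbol a litter and the mean ± standard error of the limma fit in black. Vnn1, Pdk4, Angptl4, Ehhadh and Cpt1a lie above 0 in all 3 litters, and Plin2, Acadm and Ppara have litters on both sides of 0.

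Cpt1a encodes the carnitine acyltransferase of the outer mitochondrial membrane, the controlled step of fatty acid entry. It was at 10.99, 10.84 and 10.85 in mutants 1 to 3, against 10.63, 10.65 and 10.62 in controls 1 to 3. The mutants were above the controls, by 0.36, 0.19 and 0.23 in litters 1 to 3, and the change of 0.26 ± 0.08 did not pass. The next steps of the shuttle differed as little, with Slc25a20, the carnitine carrier of the inner membrane, at 0.03 ± 0.10 and Cpt2, the inner acyltransferase, at 0.16 ± 0.09. Among the 5 measured genes of the shuttle beside Cpt1a, 0 rose and 0 fell in the limma fit (1.66% and 2.11% of all genes).

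Acadm encodes medium-chain acyl-CoA dehydrogenase, which opens a round of mitochondrial oxidation. It was at 10.65, 10.54 and 10.65 in mutants 1 to 3, against 10.43, 10.72 and 10.73 in controls 1 to 3. The groups overlapped fully and the change was -0.01 ± 0.10. Ehhadh encodes the bifunctional enzyme of peroxisomal oxidation. It was at 9.83, 9.15 and 9.41 in mutants 1 to 3, against 8.74, 8.75 and 8.73 in controls 1 to 3. The controls lay close together while the mutants were spread out, and the lowest mutant was 0.41 above the highest control. The change was 0.73 ± 0.13 (1.65-fold), with 1.09 in litter 1, 0.41 in litter 2 and 0.68 in litter 3.

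Plin2 encodes perilipin 2, which coats lipid droplets in most cells. It was at 11.55, 10.96 and 11.22 in mutants 1 to 3, against 11.01, 11.19 and 11.03 in controls 1 to 3. Mutant 1 was the highest and mutant 2 the lowest of the 6 samples, so the groups overlapped, and the change of 0.17 ± 0.14 did not pass. The other perilipin genes did not pass either. They stood at -0.10 ± 0.08 for Plin1, known from adipocytes, 0.05 ± 0.08 for Plin3, -0.16 ± 0.08 for Plin4 and 0.02 ± 0.09 for Plin5.

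**Figure D3:**
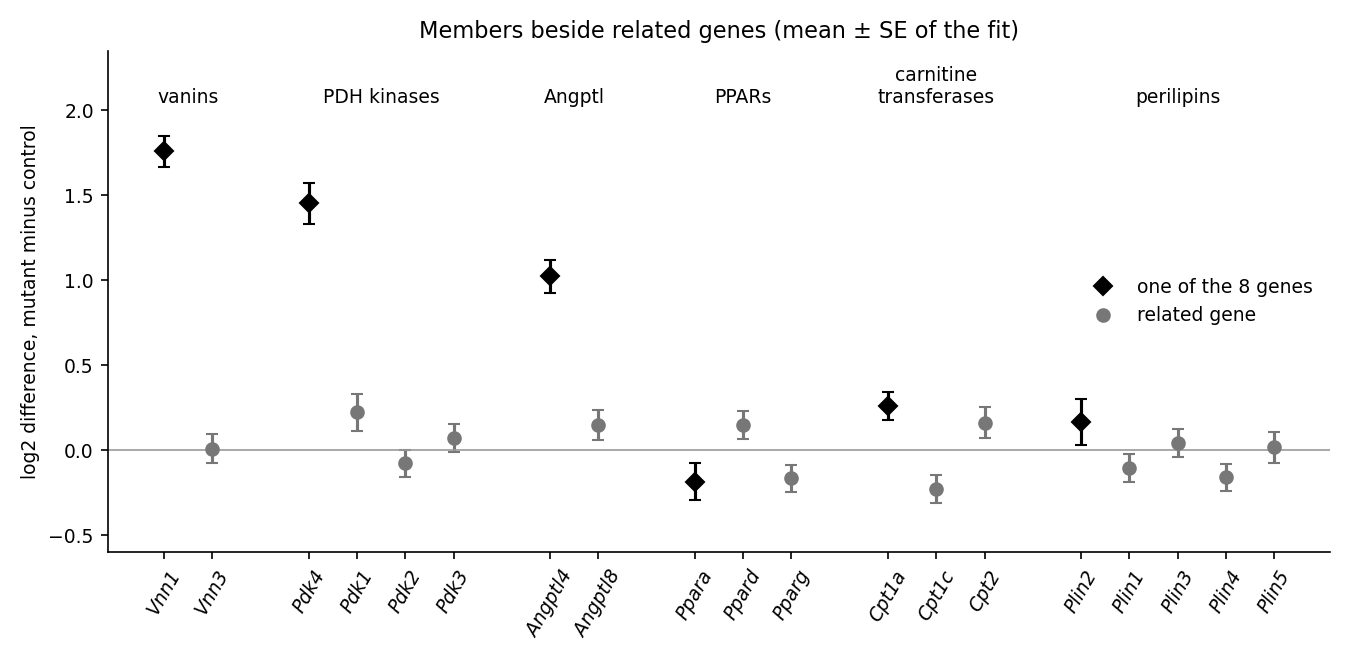
Log2 difference, mutant minus control, with its standard error in the limma fit, for members of the set (diamonds) and related genes (circles). Vnn1, Pdk4 and Angptl4 stand between 1.02 and 1.76, while the related genes of all 6 families stand between -0.23 and 0.22. Vnn3 has a dim signal, at percentile 18.7 of all genes.

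The litters differed in the size of these changes. The 8 genes had medians of 0.81, 0.30 and 0.46 in litters 1 to 3, and the median of all genes was within 0.01 of 0 in each litter. Vnn1, Pdk4, Ehhadh, Cpt1a, Plin2 and Acadm had their lowest difference in litter 2, Angptl4 in litter 3 and Ppara in litter 1.

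Bases before the start of the gene are printed for a pair of genes that rose, Pdk4 and Ehhadh, and a pair of fatty acid oxidation genes that did not pass, Cpt1a and Acadm. RefSeq's promoter table on build GRCm38.p6 held 6 of the 8 genes. Vnn1 and Angptl4 were not matched. The sequences are the 250 bases upstream of the start, 5′ to 3′ on the strand of the gene, with the half-site AGGTCA, to which PPAR and RXR are known to bind as tandem copies, in capitals where it is found on either strand (TGACCT on the other strand). Pdk4 lies at chr6:5496279-5496528 on the minus strand, Ehhadh at chr16:21787835-21788084 on the minus strand, Cpt1a at chr19:3323051-3323300 on the plus strand and Acadm at chr3:153944644-153944893 on the minus strand.
Pdk4: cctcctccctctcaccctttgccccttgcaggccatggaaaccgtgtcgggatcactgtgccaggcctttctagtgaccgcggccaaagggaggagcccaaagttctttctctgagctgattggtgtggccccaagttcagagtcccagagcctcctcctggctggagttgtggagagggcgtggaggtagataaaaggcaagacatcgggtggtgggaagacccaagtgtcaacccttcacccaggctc
Ehhadh: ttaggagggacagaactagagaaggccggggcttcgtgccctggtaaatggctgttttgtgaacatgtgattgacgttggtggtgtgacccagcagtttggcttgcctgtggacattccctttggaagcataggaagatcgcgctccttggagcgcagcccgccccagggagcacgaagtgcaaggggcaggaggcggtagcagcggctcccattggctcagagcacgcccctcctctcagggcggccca
Cpt1a: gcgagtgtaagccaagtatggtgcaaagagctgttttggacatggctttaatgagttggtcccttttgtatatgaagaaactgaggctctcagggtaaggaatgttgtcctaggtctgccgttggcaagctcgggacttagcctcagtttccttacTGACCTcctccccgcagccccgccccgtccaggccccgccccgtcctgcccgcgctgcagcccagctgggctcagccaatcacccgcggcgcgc
Acadm: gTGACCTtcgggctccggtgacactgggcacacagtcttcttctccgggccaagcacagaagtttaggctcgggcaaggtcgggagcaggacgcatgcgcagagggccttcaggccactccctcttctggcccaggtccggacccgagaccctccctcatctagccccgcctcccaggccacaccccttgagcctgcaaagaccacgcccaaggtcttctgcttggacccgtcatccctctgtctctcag
The half-site AGGTCA was found 94 bases before the start in Cpt1a and 249 bases before it in Acadm, and also 218 bases before it in Plin2, counted from the first base of the match. It was not found in the windows of Pdk4, Ehhadh and Ppara. In all, 3 of 6 windows held it, and 14.0% of 32851 promoter windows of the same length did. The tandem form AGGTCANAGGTCA, searched on both strands and containing the half-site, was found in 0 of the 6 windows and in 0.0335% of all. A looser form, AGGNCANAGGNCA, was found in 0 of the 6 windows and in 0.338% of all. The matches describe these letters only, and elements farther from the start lie outside the windows.

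Other genes of fatty acid and fuel use changed in part. Over 14 lists with 159 measured genes beside the 8, 10 rose (6.29%) and 5 fell (3.14%), against the 1.66% and 2.11% of all genes given above. The lists were drawn up with earlier results of these samples known, among them that some fatty acid oxidation genes rose, so their direction is not independent evidence. The number of rises was 18 without litter 2 and 6 without litter 1, also 6 without litter 3, and the number of falls was 3 without litter 3. Over all genes the rises numbered 403 without litter 2, 297 without litter 1 and 247 without litter 3, beside 330 with every litter. Falls over all genes numbered 299 without litter 3, beside 421 with every litter.

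Of the 39 measured genes in the shuttle and both oxidation lists without the members, 2 rose, Eci2 and Pex11a, 0 fell and 37 did not pass. In 31 of 39 genes (79.5%) the change was above 0, against 52.5% of all genes. All mutants lay above all controls in 12 of 39 (30.8%, beside 10.0% of all genes) and below them in 2 of 39 (5.13%, beside 9.78%). The median change of the 39 was 0.13 beside 0.01 for all genes. By litter the medians were 0.23, -0.01 and 0.19 for litters 1 to 3. Eci2, an isomerase needed for unsaturated fatty acids, was at 9.17, 8.93 and 8.96 in mutants, against 8.62, 8.50 and 8.53 in controls (0.47 ± 0.08, adjusted p = 0.0221, and 0.0655 without litter 3). Pex11a, a peroxisome division factor that PPAR-alpha is known to induce, was at 8.61, 8.29 and 8.23 in mutants, against 7.87, 7.87 and 7.86 in controls (0.51 ± 0.10, adjusted p = 0.0301, and 0.0576 without litter 1). The mitochondrial enzyme genes Hadha (0.38 ± 0.11, adjusted p = 0.138) and Acadl (0.35 ± 0.11, adjusted p = 0.145) did not pass, though all mutants were above all controls in both. Without litter 2 their adjusted p values were 0.0173 and 0.0388. Acadvl, which handles very long chains, stood at 0.20 ± 0.08 (adjusted p = 0.313), and Acaa1b, a peroxisomal thiolase, at 0.33 ± 0.14 (adjusted p = 0.309, and 0.0255 without litter 2). Litter 2 had the lowest difference for Acaa1b too (-0.07).

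**Figure D4:**
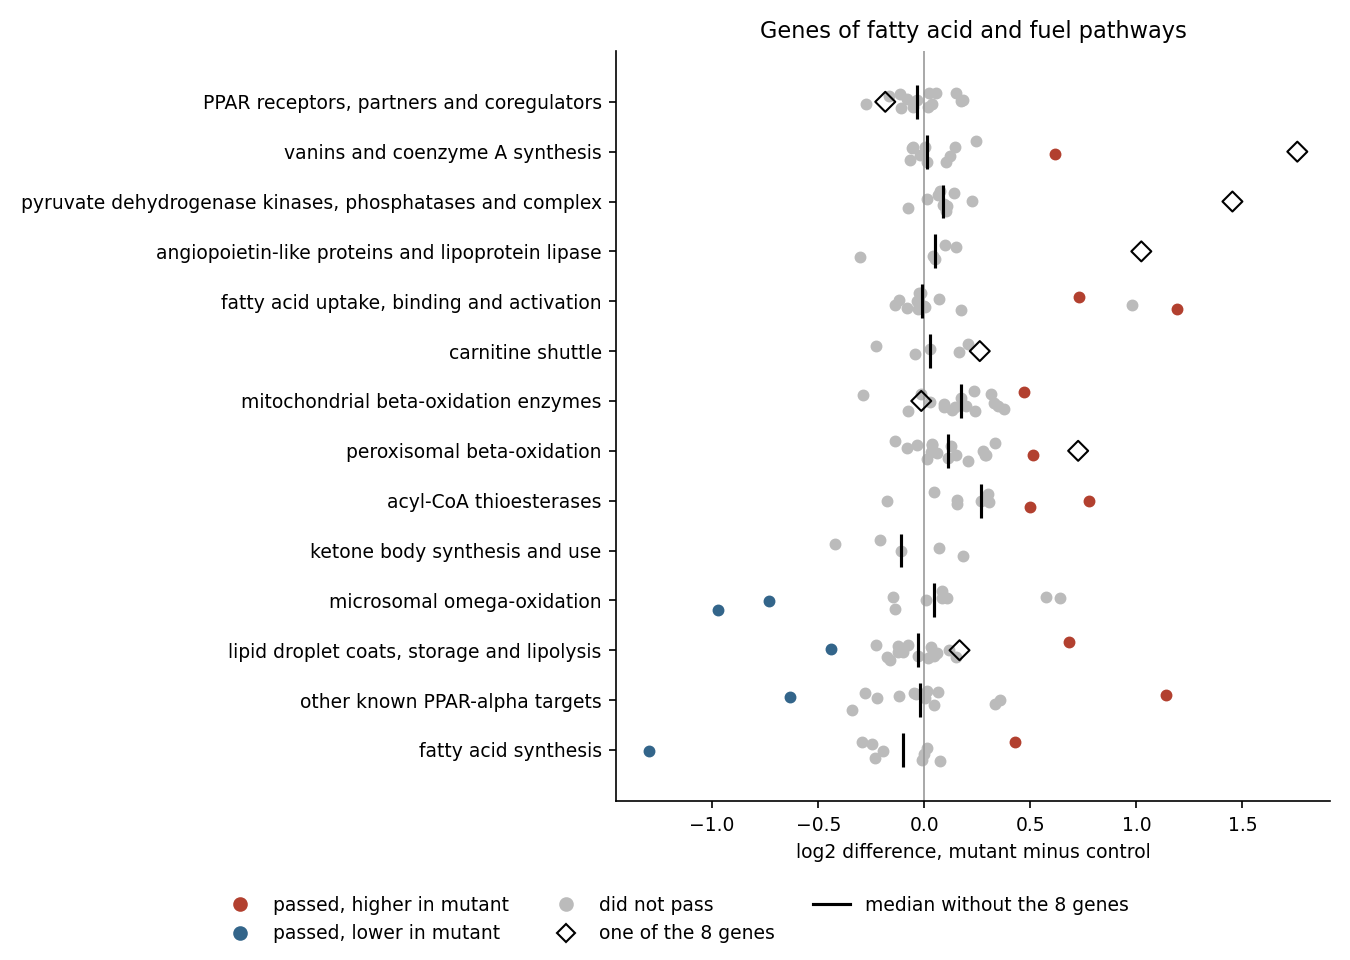
Log2 difference, mutant minus control, of each measured gene in 14 lists, in red where it rose, blue where it fell and grey where it did not pass, with the 8 genes as open diamonds and a bar at the median of the others. The acyl-CoA thioesterases have the highest median, 0.27. Medians lie below 0 for fatty acid synthesis, ketone body genes, PPAR receptors and coregulators, fatty acid uptake, lipid droplet genes and other known PPAR-alpha targets.

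Acyl-CoA thioesterases, which release fatty acids from coenzyme A, rose in 2 of 9 genes and fell in 0. Acot1, the cytosolic form, was at 8.23, 8.01 and 8.31 in mutants, against 7.53, 7.38 and 7.31 in controls (0.78 ± 0.10, adjusted p = 0.00649). Acot2, the mitochondrial form, rose by 0.50 ± 0.08 (adjusted p = 0.0205, and 0.0741 without litter 3). The 2 genes are close copies of each other, so the array may not separate them fully. The median of the list was 0.27, with 0.22, 0.31 and 0.35 in litters 1 to 3.

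Fatty acid uptake genes rose in 2 of 14 cases and fell in 0. Slc27a2, a fatty acid transport protein with acyl-CoA synthetase activity, was at 7.68, 8.10 and 8.06 in mutants, against 6.59, 6.95 and 6.72 in controls (1.19 ± 0.09, adjusted p = 0.000944). Fabp2, the intestinal fatty acid binding protein, was at 8.90, 8.34 and 9.01 in mutants, against 7.98, 8.11 and 7.97 in controls (0.73 ± 0.15, adjusted p = 0.0415). Its adjusted p was 0.144 without litter 1 and 0.0914 without litter 3. Fabp1, the liver-type binding protein, which small intestine also makes, was at 7.33, 4.77 and 7.92 in mutants, against 4.72, 6.95 and 5.42 in controls. The litters disagreed for Fabp1, with 2.61, -2.18 and 2.50, and its change of 0.98 ± 0.80 did not pass; without litter 2 it was 2.56, with adjusted p = 4.6e-10. Cd36, a fatty acid translocase, stood at -0.14 ± 0.13.

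Genes of omega-oxidation, the attack on the far end of a fatty acid, fell in 2 of 10 cases and rose in 0. Both belong to the Cyp4f family. Cyp4f16 was at 8.95, 8.46 and 8.43 in mutants, against 9.93, 9.47 and 9.37 in controls (-0.97 ± 0.08, adjusted p = 0.00131), and Cyp4f14 fell by 0.73 ± 0.09 (adjusted p = 0.00638). Cyp4a10, a classical target of PPAR-alpha in mouse liver, was at 5.85, 4.99 and 5.77 in mutants, against 4.92, 5.04 and 4.71 in controls (0.64 ± 0.19, adjusted p = 0.137). Litter 2 showed no difference for Cyp4a10 (-0.05, beside 0.92 and 1.05), and without it the adjusted p was 6.1e-05, over the 4 mice of the litters that differed. Cyp4a genes are near-identical copies, and the gene behind that signal is uncertain.

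In the droplet list 1 of 17 genes beside Plin2 rose and 1 fell. Hilpda, a droplet protein that restrains lipolysis, was at 7.67, 7.64 and 7.65 in mutants, against 6.95, 7.09 and 6.88 in controls (0.68 ± 0.09, adjusted p = 0.00649). Mgll, monoacylglycerol lipase, fell by 0.44 ± 0.09 (adjusted p = 0.0378), with adjusted p between 0.0504 and 0.130 when any litter was left out. Among 14 other known targets 1 rose and 1 fell, the change was above 0 in 7 of 14, and the median change was -0.02. Aqp3, a glycerol and water channel, was at 8.39, 7.14 and 8.01 in mutants, against 6.84, 6.71 and 6.57 in controls (1.14 ± 0.20, adjusted p = 0.0217, 0.0514 without the litter block and 0.0851 without litter 1). Scd1, a fatty acid desaturase, fell by 0.63 ± 0.13 (adjusted p = 0.0378, 0.0916 without the litter block, 0.0700 with litter as a random block and 0.112 without litter 3). Fgf21, a hormone that the receptor induces in liver, stood at -0.22 ± 0.10, with adjusted p = 0.384. Ketone body genes did not pass in 5 of 5 cases, though Oxct1, which lets cells use ketone bodies, passed as a fall with litter as a random block (adjusted p = 0.0448) and without litter 1 (0.0243).

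The genes most like Vnn1 across the 6 arrays came from other pathways. Likeness was the Euclidean distance between the log2 values of 2 genes after the mean of each gene was taken off. It includes the step between mutants and controls, on which the set was chosen, so genes with a similar large rise come out as near. The 5 nearest genes outside the set were Cck (0.544), Gcg (0.616), A4gnt (0.737), Mgp (0.769) and B3gnt6 (0.772). In that order they took ranks 22, 7, 25, 13 and 31 among rises. Cck and Gcg encode hormones of enteroendocrine cells, A4gnt and B3gnt6 encode glycosyltransferases that build mucin sugars, and Mgp encodes a matrix protein. Cck was at 8.07, 8.03 and 7.71 in mutants, against 6.61, 6.74 and 6.28 in controls, with litter 3 low in both groups as in Vnn1. Among the members, Pdk4 was nearest to Vnn1 (0.774, rank 6 of all genes), followed by Angptl4 (1.38, rank 76) and Ehhadh (1.45, rank 108).

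Markers of several cell types moved in the same samples. Colon arrays report a mixture, in which fewer cells of a type and less RNA per cell cannot be told apart. Of 10 epithelial genes 0 rose and 0 fell in the limma fit, and their mean log2 level per array ranged from 11.19 to 11.35 in mutants and from 11.27 to 11.35 in controls. Of 8 smooth muscle genes 5 fell and 0 rose, Myh11 by 0.56 ± 0.09, Cnn1 by 0.72 ± 0.12 and also Des, Actg2 and Myocd, with a mean level of 10.82 to 11.22 in mutants and 11.50 to 11.57 in controls. Of 8 blood endothelium genes 5 fell and 0 rose, with Kdr at -0.61 ± 0.08, Plvap at -0.63 ± 0.09, Emcn, Cdh5 and Tek among them, and a mean level of 8.05 to 8.23 in mutants and 8.41 to 8.71 in controls. Of 8 neutrophil genes 5 rose and 0 fell, with Cxcr2 at 1.60 ± 0.10, S100a8 at 1.52 ± 0.23, S100a9, Retnlg and Csf3r among them, and a mean level of 6.15 to 6.83 in mutants and 5.51 to 5.69 in controls. Without litter 1, Cnn1, Des, Actg2, Myocd and Cdh5 no longer passed (adjusted p 0.0565 to 0.115). Without litter 3, Myocd, Emcn, Cdh5, Tek and Csf3r did not (0.0520 to 0.171), and without litter 2, Tek did not (0.0597). The count of smooth muscle falls was 1 without litter 1, and that of endothelial falls was 2 without litter 3. Without the litter block and with litter as a random block, Plvap (adjusted p = 0.106 and 0.0764), Des (0.0685 and 0.0523) and Csf3r (0.106 and 0.0777) did not pass, nor did Retnlg without the block (0.0565). Of the neutrophil genes 3 rose without the block, 4 with the random block and 2 when the dimmest 30% of genes, Cxcr2, S100a8 and Retnlg among them, were not tested. The part of these shifts in the rise of Vnn1, Pdk4, Angptl4 and Ehhadh was not tested.

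Enterocytes of the small intestine absorb and oxidise dietary fat. Of 14 small intestinal enterocyte genes 1 rose (Slc10a2, the ileal bile acid transporter, 1.17 ± 0.16, adjusted p = 0.00915) and 0 fell, and their mean level was 7.87 to 8.21 in mutants and 7.56 to 7.89 in controls. All mutants lay above all controls in 6 of the 14 (42.9%, beside 10.0% of all genes) and below them in 0 (beside 9.78%). Under the 11 other settings of the fit 1 to 3 rose, and 1 fell without litter 1 and 1 without litter 3. That list had median differences of 0.63, -0.11 and 0.13 in litters 1 to 3. Apoa4, an apolipoprotein of fat absorption, was at 11.18, 9.31 and 10.03 in mutants, against 8.90, 9.23 and 8.82 in controls (1.19 ± 0.33, adjusted p = 0.108). Without litter 2, which had the smallest Apoa4 difference, the adjusted p was 3.2e-06 over the 4 mice of the litters that differed more. In litter 2 the mutant was higher by 0.09 for Apoa4, by 1.11 for Slc10a2 and by 2.40 for Fabp6, another ileal gene of the list. Of 8 surface colonocyte genes 1 rose (Scnn1b, a sodium channel subunit, 0.85 ± 0.12) and 2 fell, the falls being Car4 (-1.40 ± 0.18) and Aqp8 (-1.29 ± 0.18). In 4 of these 8 (50%, beside 10.0% of all genes) all mutants lay above all controls, and in 2 (25%, beside 9.78%) below them. The part of the enterocyte and colonocyte genes in the result was not tested.

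Of 9 adipocyte genes 1 rose (Pck1, an enzyme of glucose synthesis that gut also makes, 0.66 ± 0.10) and 0 fell, and the adipocyte hormone gene Adipoq stood at -0.16 ± 0.08. In the limma fit 0 of 7 hepatocyte, 0 of 8 skeletal muscle and 0 of 8 macrophage genes passed. The hepatocyte genes ran from -0.66 to 0.28, and 2 of them fell without litter 1 and with Xist as a covariate. Just 1 hepatocyte gene fell with a trended and robust variance prior and without the dimmest 30% of genes. The macrophage genes had a median of -0.19. Of these, 2 fell without the dimmest 30% of genes and with Xist as a covariate. With a trended and robust variance prior, and without litter 3, 1 macrophage gene fell. Among skeletal muscle genes 1 fell without the dimmest 30% of genes and with Xist as a covariate. Genes known to respond to glucocorticoids, hormones that also induce Pdk4 and Angptl4, rose in 4 of 7 cases and fell in 0. Fkbp5, a chaperone of the steroid receptor, was at 9.34, 10.31 and 10.50 in mutants, against 8.36, 8.53 and 8.48 in controls (1.60 ± 0.18, adjusted p = 0.00424). Per1, a clock gene, rose by 0.47 ± 0.08 (adjusted p = 0.0236, and 0.127 without litter 3). Sgk1, a kinase, rose by 0.44 ± 0.08 (adjusted p = 0.0300, and 0.172 without litter 3), and Zbtb16, a transcription factor, by 0.70 ± 0.13 (adjusted p = 0.0301, and 0.0577 without litter 3). Tsc22d3, another response gene, stood at -0.13 ± 0.10. The median of the list was 0.28, 0.39 and 0.56 in litters 1 to 3. Its part in the result was not tested.

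**Figure D5:**
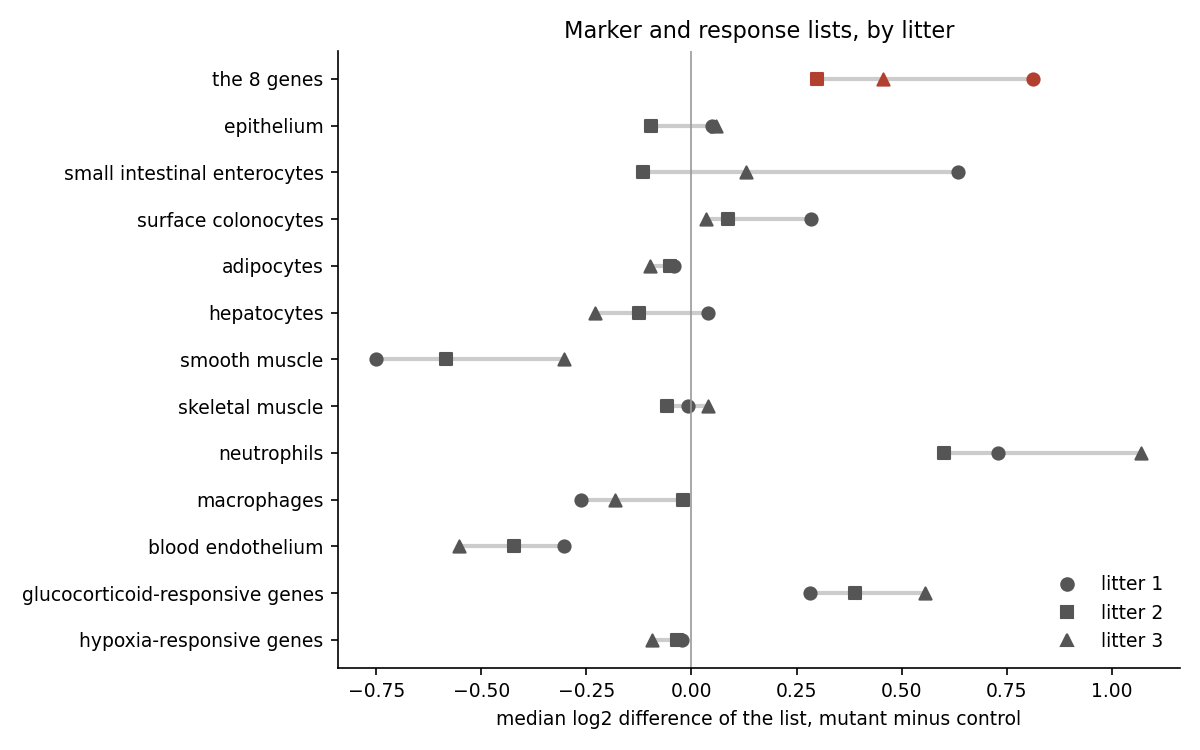
Median log2 difference, mutant minus control, of the 8 genes and of marker and response lists, with 1 symbol a litter. The 8 genes and the neutrophil, glucocorticoid-responsive and surface colonocyte lists lie above 0 in all 3 litters. The smooth muscle, blood endothelium, macrophage, adipocyte and hypoxia-responsive lists lie below 0 in all 3.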

How the data were processed

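RNA of whole colon was hybridised to Affymetrix Mouse Gene 1.0 ST arrays, 1 per mouse. The deposited values are log2 expression, made by the authors with RMA per the submitters' processing notes; version and genome build: not given in the sources used here. It held 35557 rows and 0 further columns of per-sample values. Rows were named through the platform annotation of GEO: 21789 had 1 gene symbol, 1621 several and 12147 were unnamed here. The highest-mean row per gene was kept, which left 19938 genes. Each of the 8 genes had 1 row.

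Mutants were compared with controls in limma 3.58.1 (R 4.3.3; lmFit and eBayes, two-sided, Benjamini-Hochberg over 19938 genes and a threshold of 0.05). Litter entered as a fixed block, because the design text names the pairs as littermates. After removal of group means, the values of littermates had correlations over genes of 0.0128, 0.00516 and 0.0613, so the pairing comes from the design text. The fit has 2 residual degrees of freedom, to which the prior adds 5.85. With 3 arrays a group, precision is limited by their number. All adjusted p values are from this fit unless another setting is named.

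The members, lists and tests were chosen with earlier results of these data known. Named genes were the 8 members, hedgehog label checks, up to 4 passing genes of each pathway list, a fixed set of receptors, enzymes and paralogs, the 5 genes most like Vnn1, and up to 2 passing genes of each marker or response list. Pank1, Coasy, Angptl8, Plin1, Apoa4, Adipoq, Tsc22d3, Xist, Scnn1b, Des, Actg2, Myocd, Emcn, Cdh5, Tek, S100a8, Retnlg, Csf3r, Sgk1, Zbtb16 and the genes named in the closing section beyond Scd2, Acacb, Car9 and Ankrd37 were added after their values were seen. Scripts were tested on simulated data.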

Additional observations from a re-analysis of the deposited data

How the results depend on the processing

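The alternatives were a fit without the replicate block, a random litter block, a trended and robust variance prior, a filter that drops the dimmest 30% of genes, quantile normalization, centring on array medians, averaging a gene's rows, leaving out each litter, and Xist as a covariate. Under all 11 of them 4 of the 8 genes rose and 0 fell. Without the block 274 of all genes rose and 364 fell, beside 330 and 421 with it; of the other pathway genes 9 rose and 4 fell. With Xist as a covariate 558 of all genes rose and 672 fell; the cause was not tested. With a litter left out, 6 to 18 other pathway genes rose and 3 to 5 fell, over 4 mice in place of 6. Of all genes 247 to 403 rose and 299 to 484 fell in those fits. Over 91 named genes no change of direction came with a call. Of the 52 that passed, 30 did so under every alternative run on them. No setting moved the median of all genes by more than 0.1.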

Other observations

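Genes of fatty acid synthesis gave 1 rise and 1 fall among 10. Scd2, a desaturase that makes monounsaturated fatty acids, was at 10.34, 10.67 and 11.27 in mutants 1 to 3, against 11.89, 12.21 and 12.07 in controls 1 to 3 (-1.30 ± 0.15, limma adjusted p = 0.00457). Acacb, the acetyl-CoA carboxylase whose product malonyl-CoA blocks the transferase encoded by Cpt1a, rose by 0.43 ± 0.08 (adjusted p = 0.0279), with adjusted p between 0.0519 and 0.111 when a litter was left out. Srebf1, a regulator of lipid synthesis, and Fasn, fatty acid synthase, stood at -0.29 ± 0.08 and -0.25 ± 0.08 and did not pass, with all mutants below all controls in both.

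Of 10 genes that respond to low oxygen, which is also known to raise Angptl4 and Hilpda, 1 rose and 1 fell. Car9, a carbonic anhydrase, rose by 0.58 ± 0.12 (adjusted p = 0.0352, and 0.129 without litter 3), Ankrd37 fell by 0.77 ± 0.09 (adjusted p = 0.00491), and Vegfa stood at -0.04 ± 0.09; the part of these genes in the change of Angptl4 was not tested. Oxct1, which lets cells use ketone bodies, was at 10.30, 10.02 and 10.16 in mutants, against 10.45, 10.63 and 10.66 in controls, and did not pass (adjusted p = 0.0783, 0.0448 with litter as a random block and 0.0243 without litter 1). Fabp6, the ileal bile acid binding protein, was at 5.44, 7.79 and 5.86 in mutants, against 5.08, 5.39 and 5.41 in controls. Mutant 2 had the highest Fabp6 and, among mutants, the lowest Fabp1.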
